A study of Mus musculus with 2 samples.

Results

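The genes described here are 10 genes of the Fc and Toll-like receptor systems, followed through injured and uninjured brain tissue. They were chosen by gene symbol from the deposited gene list, and all 10 were among its 19070 genes. The tissue came from C57Bl6 mice (the substrain C57BL/6 J per the study's methods), male and 3 months old, subjected to controlled cortical impact (CCI), an impact by a driven piston on the brain surface of 1 hemisphere after craniotomy. Per the labels, 1 brain section belongs to CCI after 3 days and 1 to CCI after 28 days, and every mouse used here was injured. The counts come from Visium HD on paraffin sections, in which pairs of gene probes are ligated on the tissue and counted in square bins of 16 µm as unique molecular identifiers (UMIs), each standing for 1 captured probe pair. There was no sham section, so the opposite side of the same section served as background, and with 1 mouse per time point nothing here could be set against the spread between animals.

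Fc receptors bind the constant part of antibodies and let phagocytes respond to antibody-coated material. Fcgr1, Fcgr3 and Fcgr4 encode activating receptors for IgG, which depend on the signalling chain encoded by Fcer1g, whereas Fcgr2b encodes the inhibitory IgG receptor. Toll-like receptors recognise microbial products and molecules released from damaged cells. Tlr2 and Tlr4 encode receptors of the cell surface, Tlr7 a receptor for single-stranded RNA in endosomes, Cd14 a co-receptor that hands ligands to TLR4 and TLR2, and Myd88 the adaptor through which most Toll-like receptors signal. In the brain these genes are mainly known from microglia, border macrophages and infiltrating phagocytes.

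Fcgr2b, Fcgr4, Fcgr3 and Fcer1g lie together on chromosome 1 (GRCm38, positions 170960558 to 171234349, a span of 274 kb), and Fcgr1 lies on chromosome 3 (96282909 to 96293969). RefSeq promoter sequences on this build were found for 7 of the 10 genes. The stretches of 100 bases directly before the transcription start are shown for the 4 IgG receptor genes, because 3 of them lie in 1 cluster and the balance among the 4 is described below. Capitals mark the letters GAGGAA or their reverse complement TTCCTC, the core bound by the myeloid factor PU.1 and its relatives.
Fcgr1 (chr3:96293970-96294069, minus strand): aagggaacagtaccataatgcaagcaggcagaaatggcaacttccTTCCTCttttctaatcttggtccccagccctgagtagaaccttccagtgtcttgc
Fcgr3 (chr1:171059404-171059503, minus strand): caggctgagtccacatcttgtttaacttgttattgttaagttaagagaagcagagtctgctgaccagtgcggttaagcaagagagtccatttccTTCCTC
Fcgr4 (chr1:171018826-171018925, plus strand): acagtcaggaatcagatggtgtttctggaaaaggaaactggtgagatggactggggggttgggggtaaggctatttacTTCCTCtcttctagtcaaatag
Fcgr2b (chr1:170976072-170976171, minus strand): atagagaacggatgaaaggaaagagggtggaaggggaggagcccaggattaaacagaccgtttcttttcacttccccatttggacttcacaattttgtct
The 3 activating receptor genes each held 1 match, and the Fcgr2b stretch held none. Among all 32851 promoter entries 9.82% held the motif in these 100 bases and 23.3% within 250 bases. Fcgr3 has 2 listed starts, of which 1 is shown, and its stretch is intronic in longer transcripts of the gene. Fcer1g, Tlr2 and Myd88 had no match within 250 bases. A match is a description of the letters and does not show binding.

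In each section the injured side was the part of the array below a fixed column, which gave 39116 bins against 80501 on the opposite side at 3 days and 49478 against 53838 at 28 days. The mean depth was 960 UMIs per bin on the injured side and 1030 opposite to it at 3 days, and 750 and 839 at 28 days. Levels are UMIs per 1000000 UMIs of the area (CPM). Intervals are 95% intervals, exact Poisson for levels and exact conditional binomial for ratios, and cover counting error only. The Cd68 gene, which encodes a lysosomal protein of phagocytes, was at 41.7 CPM (injured) and 12.9 CPM (opposite) at 3 days, and at 63.5 and 9.23 CPM at 28 days, so Cd68 was higher on the injured side in both sections. The array captured 2.08 mm of the injured side and 4.624 mm of the opposite side at 3 days, and 3.84 mm and 2.864 mm at 28 days, so different extents of tissue are compared.

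Of the receptor genes, 9 were at least 2-fold higher on the injured side at both times, with Myd88 the exception. At 3 days 9 of the 10 genes passed this ratio, against 10.5% of all 16164 genes that had 20 UMIs or more in both areas together. At 28 days it was again 9 of 10, against 6.55% of 15640 genes. The median log2 ratio of the 10 genes was 1.73 at 3 days and 2.17 at 28 days, beside 0.14 and 0.04 over all genes measured. In sums over tissue, more cells of a type and more RNA per cell cannot be told apart.

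Of the IgG receptor genes, Fcgr4 showed the highest ratio between the sides. Fcgr4 was at 5.83 CPM (injured) and 0.591 CPM (opposite) at 3 days, a 9.87-fold ratio (95% interval 7.21 to 13.7). At 28 days Fcgr4 was at 3.74 and 0.443 CPM, 8.46-fold apart (5.27 to 14.3). Its ratio at 3 days ranked at place 31 among the 16164 genes. Fcgr4 was also the scarcest gene of the group, with 49 UMIs on the opposite side at 3 days and 20 at 28 days.

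The high-affinity receptor gene Fcgr1 was at 16.7 CPM (injured) and 4.34 CPM (opposite) at 3 days, and at 13.4 and 3.30 CPM at 28 days. These are 3.84-fold (3.37 to 4.39) and 4.05-fold (3.37 to 4.90) ratios. Against the whole opposite side, the side ratio of Fcgr1 was thus nearly the same at both times. The low-affinity activating receptor gene Fcgr3 was at 26.9 and 10.3 CPM at 3 days, a 2.60-fold ratio (2.37 to 2.85), and at 37.4 and 10.4 CPM at 28 days, a 3.58-fold ratio (3.23 to 3.99). Its opposite-side level was the same at both times within counting error.

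The inhibitory receptor gene Fcgr2b was at 7.96 CPM (injured) and 2.18 CPM (opposite) at 3 days, a 3.65-fold ratio (3.02 to 4.41). At 28 days it was at 14.8 and 2.01 CPM, a 7.37-fold ratio (5.89 to 9.30). Against the whole opposite side, the log2 side ratio of Fcgr2b was thus 1.01 higher at 28 days (0.60 to 1.43, counting error only). This depended on the reference, as given below. Fcer1g, the signalling chain shared by the activating receptors, is also a chain of the IgE receptor. Fcer1g was at 107 and 35.2 CPM at 3 days, 3.03-fold (2.89 to 3.18), and at 146 and 25.8 CPM at 28 days, 5.65-fold (5.31 to 6.03).

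Tlr2, whose product recognises lipoproteins, was at 33.5 CPM (injured) and 8.85 CPM (opposite) at 3 days, a 3.79-fold ratio (3.46 to 4.16), and at 44.7 and 5.69 CPM at 28 days, a 7.85-fold ratio (6.88 to 8.99). Tlr7 was at 7.56 and 2.69 CPM at 3 days, 2.81-fold (2.35 to 3.37), and at 13.1 and 2.61 CPM at 28 days, 5.00-fold (4.08 to 6.17). Both receptor genes had a wider side ratio at 28 days, by 1.05 (0.82 to 1.28) and 0.83 (0.45 to 1.22) on the log2 scale. Tlr4, the receptor gene for lipopolysaccharide, was at 9.32 and 3.47 CPM at 3 days and at 8.65 and 2.86 CPM at 28 days. Its ratios of 2.68-fold (2.29 to 3.15) and 3.03-fold (2.46 to 3.74) differed by 0.17 on the log2 scale, with an interval from -0.20 to 0.55 that holds 0.

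Cd14 was at 6.18 CPM (injured) and 1.29 CPM (opposite) at 3 days, a 4.79-fold ratio (3.79 to 6.08), and at 5.31 and 1.55 CPM at 28 days, a 3.42-fold ratio (2.59 to 4.57). Cd14 was therefore the only one of the 10 genes apart from Fcgr4 and Myd88 with a lower side ratio at 28 days, and for Cd14 and Fcgr4 the interval of that difference held 0. The adaptor gene Myd88 was at 23.8 and 12.4 CPM at 3 days, 1.92-fold (1.76 to 2.11), and at 16.5 and 11.6 CPM at 28 days, 1.42-fold (1.27 to 1.60). Its log2 side ratio was 0.43 lower at 28 days, with the interval of the difference from -0.65 to -0.22.

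**Figure D1:**
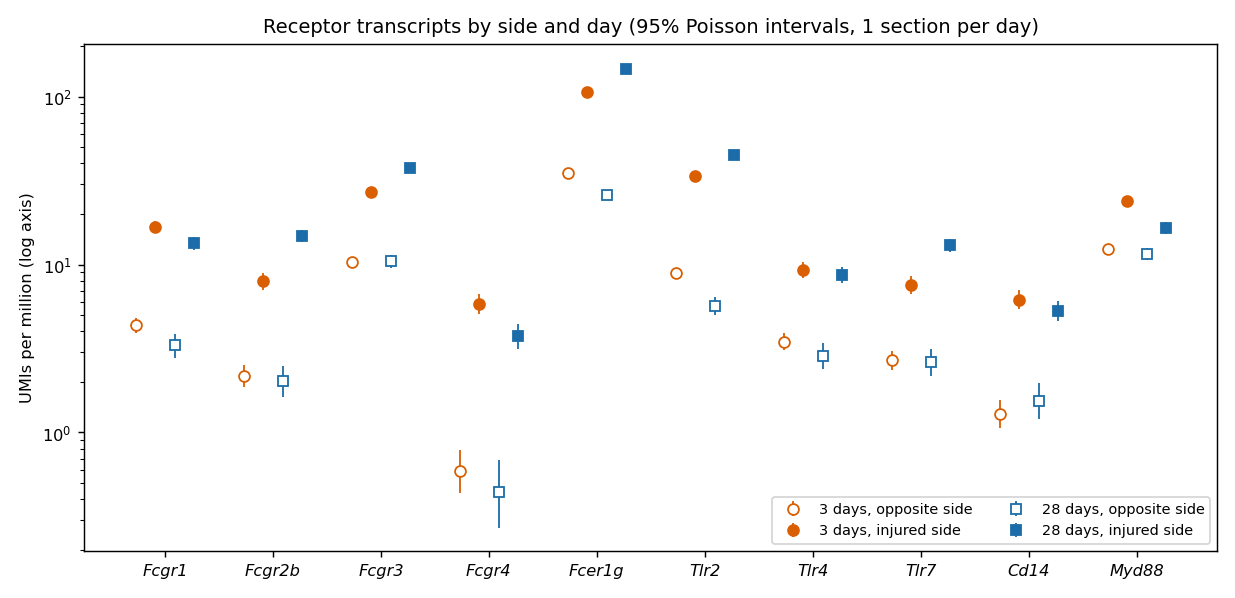
Level of each receptor gene in CPM (log axis) on the injured side (filled) and the opposite side (open) at 3 days (circles) and 28 days (squares), with 95% Poisson intervals, 1 section per day. The filled symbols lie above the open ones for all 10 genes at both times, with the narrowest gap for Myd88.

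The sides are cut at a single column, and at 3 days the receptor transcripts did not stop there. In the first 1.6 mm of the opposite side next to the boundary at 3 days, Fcgr4 was at 1.22 CPM against 0.196 CPM further away, Tlr2 at 14.8 against 5.15 CPM, and Fcgr2b at 3.48 against 1.37 CPM. These 3 genes were at least 2-fold higher in the strip than in the rest of that side, 3 of 10 against 5.82% of all genes, while Cd14 differed little, with 1.41 CPM against 1.21 CPM. At 28 days 0 of the 10 genes had a 2-fold higher level in that strip, against 3.17% of all genes. Against the rest of the opposite side alone, all 10 genes passed the 2-fold ratio on the injured side at 3 days, against 14.8% of all genes. At 28 days 9 of 10 passed, against 8.70%. By that reference Fcgr2b had log2 ratios of 2.54 at 3 days and 2.53 at 28 days, so its ratio was no wider at 28 days. Tlr2 (2.70 and 3.09), Tlr7 (1.67 and 2.24), Fcer1g (1.99 and 2.51) and Fcgr3 (1.60 and 1.69) were wider at 28 days. Fcgr1 (2.28 and 1.91) and Tlr4 (1.63 and 1.21) were lower at 28 days, as were Fcgr4, Cd14 and Myd88. These counts and ratios were added after the maps were seen.

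**Figure D2:**
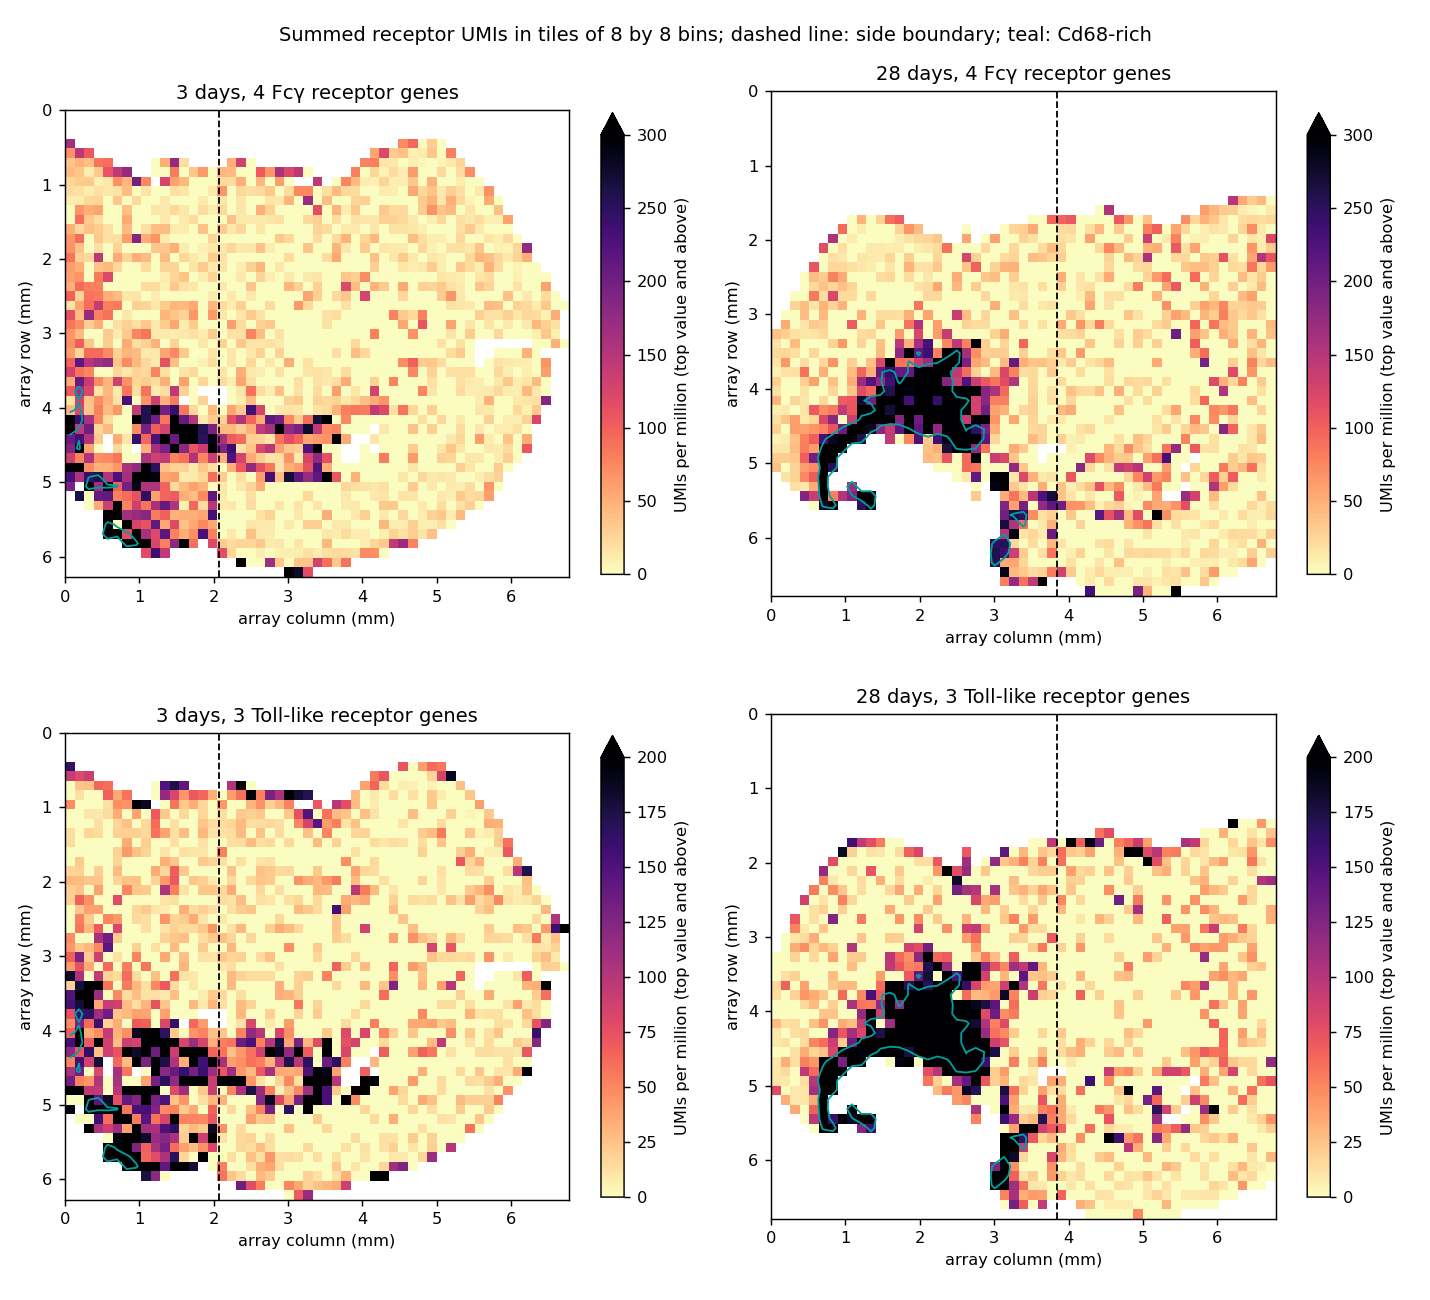
Maps of the summed UMIs of the 4 Fcγ receptor genes (top) and the 3 Toll-like receptor genes (bottom) in CPM, in tiles of 8 by 8 bins, for the 3 days section (left) and the 28 days section (right), with both axes in mm on the array. The dashed line is the side boundary and teal lines enclose Cd68-rich tissue, and at 3 days the dark tiles spread over a wide area and cross the boundary, whereas at 28 days they fill a compact field on the injured side.

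To place the transcripts relative to the lesion, bins were called Cd68-rich where the Cd68 share of UMIs in a window of 5 by 5 bins exceeded that of all but the top 0.5% of opposite-side bins, in patches of at least 100 bins. This gave 1013 bins at 3 days (2.59% of the injured side, 521 UMIs per bin) and 5733 bins at 28 days (11.6%, 589 UMIs per bin), none of them on the opposite side. At 3 days 32.1% of these bins lay within 160 µm of the array's edge, so tissue beyond the edge could not be seen, and at 28 days 0 did. Cd68 marks phagocytes, so phagocyte genes are high in these bins by construction and the ratios are a description.

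All 10 receptor genes were at least 2-fold higher in Cd68-rich bins than in injured-side bins over 500 µm away from them, at both times. The background was 17.0% of genes at 3 days and 19.1% at 28 days. At 3 days the count was 8 of 10, against 8.92% of all genes, with bins 200 to 500 µm away as the reference, where Tlr2 (log2 ratio 0.84) and Myd88 (0.17) fell short. It was 9 of 10, against 7.0% of all genes, with UMIs per bin, where Myd88 (0.30) fell short, and 9 of 10, against 15.3%, with single bins, where Fcgr4 had 17 UMIs and was not counted. The median log2 ratio of the 10 genes was 2.97 at 3 days and 4.73 at 28 days, beside -0.07 and -0.10 over all genes. At 3 days Cd14 had the highest ratio, with 55.0 CPM in Cd68-rich bins (29 UMIs) and 2.85 CPM far from them, 19.3-fold (12.2 to 29.6). The ratios at 3 days depended on the Cd68 rule and the reference area, with log2 values of 1.99 to 5.41 for Cd14, 1.05 to 5.59 for Fcgr4 and 0.84 to 4.43 for Tlr2, and with the largest patch alone Fcgr2b (2.81) was above Cd14 (1.99). At 28 days Fcgr2b had the highest ratio, with 86.5 CPM against 1.90 CPM, 45.5-fold (32.6 to 65.0). Its log2 ratio ranged from 3.62 to 5.62 under the alternatives. With bins 200 to 500 µm away as the reference, where Fcgr2b was at 7.02 CPM, its ratio was no longer the highest. Fcgr4 was above it there, with 22.5 CPM against 0.910 CPM (7 UMIs in the reference). Tlr2 (270 against 18.6 CPM) and Fcer1g (864 against 65.4 CPM) were above it as well, on 143 and 503 UMIs in the reference. Myd88 had the lowest ratio both times, 2.39-fold (1.52 to 3.59) at 3 days, a log2 ratio of 1.25 that ranged from 0.17 to 1.88 under the alternatives, and 3.73-fold (3.01 to 4.59) at 28 days.

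The way in which the levels declined with distance differed between the sections. At 3 days Fcgr1 was at 92.9 CPM in Cd68-rich bins, 45.0 CPM within 100 µm, 39.3 CPM from 100 to 200 µm, 37.0 CPM from 200 to 500 µm, 22.6 CPM from 500 to 1000 µm and 7.04 CPM beyond. At 28 days its levels in the same order were 74.7, 33.6, 16.1, 7.54, 2.99 and 2.49 CPM. Fcgr1 was thus above its opposite-side level of 4.34 CPM in every band at 3 days, and within counting error of its opposite-side level of 3.30 CPM from 500 µm outwards at 28 days. Tlr2 declined at 3 days from 142 CPM over 92.3, 89.7, 79.5 and 48.1 CPM to 12.8 CPM, and at 28 days from 270 CPM over 119, 46.2, 18.6 and 9.28 CPM to 7.30 CPM. Myd88 did not decline at first at 3 days, with 45.5 CPM in Cd68-rich bins, 51.2 CPM within 100 µm, 47.2 CPM from 100 to 200 µm and 40.5 CPM from 200 to 500 µm. These declines are in CPM, and depth at 3 days rose from 521 UMIs per bin in Cd68-rich bins to 1001 from 200 to 500 µm. Per 1000 bins of these areas, Tlr2 had 74.0 and 79.6 UMIs at 3 days, and so did not decline, and Fcgr1 48.4 and 37.0. At 28 days the numbers were 159 and 13.8 for Tlr2, and 44.0 and 5.61 for Fcgr1.

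Beyond 1000 µm all 10 genes were still higher than on the opposite side at 3 days, with intervals above a ratio of 1, as for 45.0% of all genes. Fcgr4 (3.73-fold) and Fcgr2b (2.31-fold) were the 2 of 10 genes over 2-fold, against 5.61% of all genes. The other 8 ranged from 1.37-fold for Myd88 to 1.97-fold for Cd14. At 28 days Fcer1g (1.26-fold) and Tlr4 (1.62-fold) were the 2 of 10 genes whose interval lay above a ratio of 1, near the 24.9% of all genes, and 0 of 10 reached 2-fold, against 2.69%. In bins over 500 µm away, the levels at 28 days against 3 days were at least 2-fold lower for Fcgr1, Fcgr2b, Fcgr4, Fcer1g and Tlr2, 5 of 10 genes, against 5.16% of all genes, while 0 of 10 were 2-fold higher, against 2.33% of all genes. Fcgr4 went from 3.64 to 0.666 CPM and Fcgr1 from 10.6 to 2.71 CPM in these bins. When the Cd68 threshold of the 28 days section was used in both sections, an alternative added after the results were seen, Fcer1g and Tlr2 were no longer 2-fold lower, with log2 ratios of -0.52 and -0.64, while Fcgr1 (-1.35), Fcgr2b (-1.12) and Fcgr4 (-1.41) still were.

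**Figure D3:**
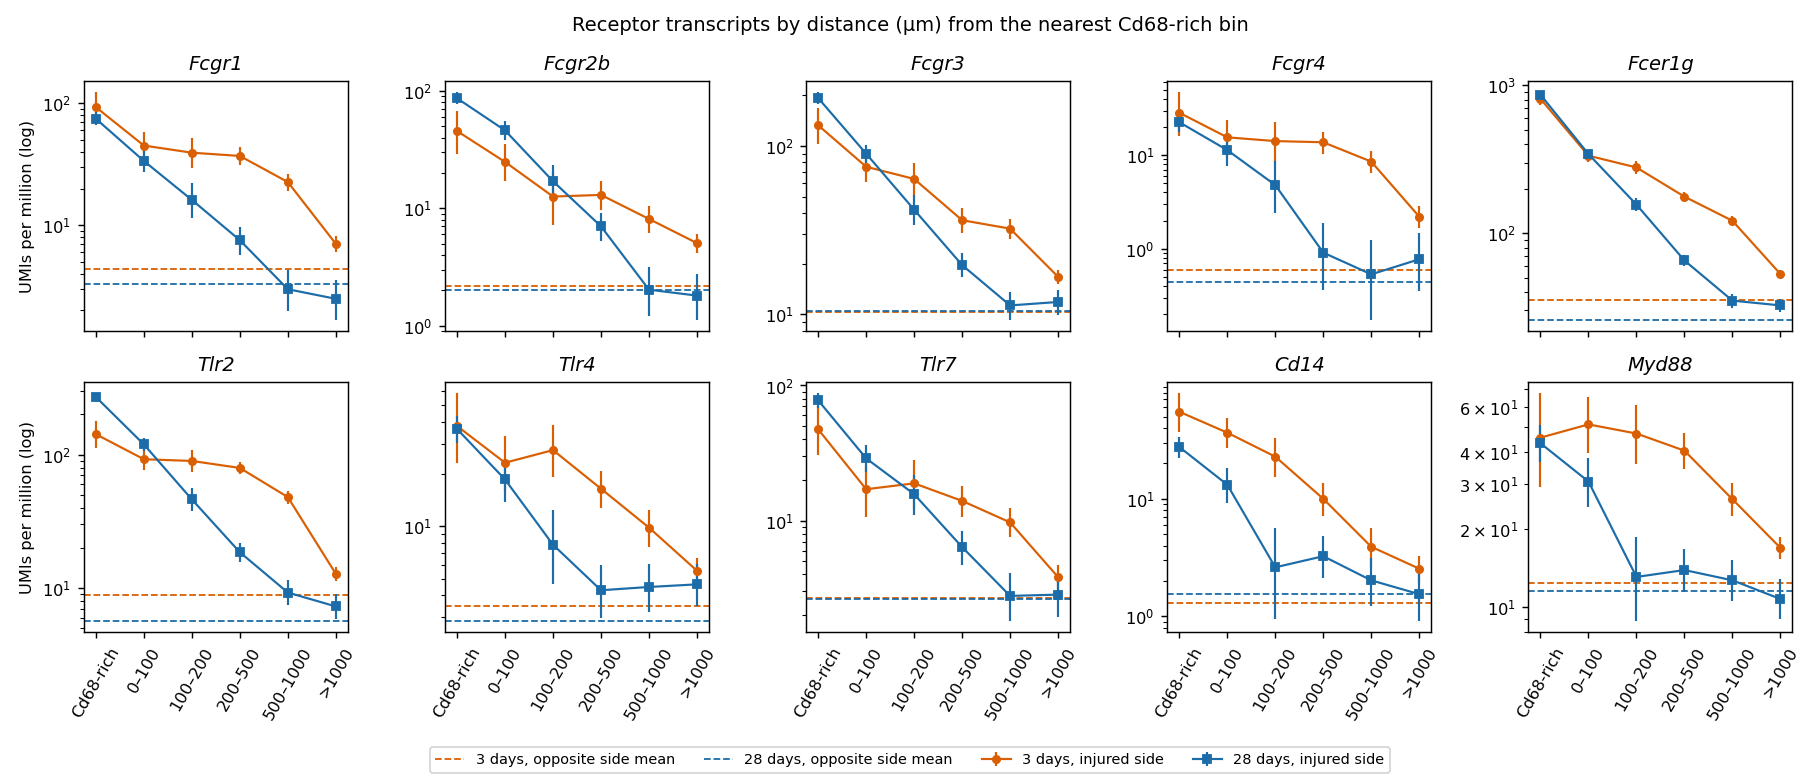
Level of each receptor gene on the injured side in CPM (log axis) by distance from the nearest Cd68-rich bin at 3 days (circles) and 28 days (squares), with 95% Poisson intervals, and the mean of the opposite side as dashed lines. At 28 days most curves meet the opposite-side level from 500 µm outwards, whereas at 3 days all 10 remain above it beyond 1000 µm.

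The share of injured-side UMIs that lay in Cd68-rich bins was higher at 28 days, for all genes together and for each receptor gene. Because the Cd68-rich area was larger at 28 days, each share is to be read against that of all UMIs. A higher share alone does not show a tighter concentration. At 3 days these bins held 1.40% of all UMIs of the injured side, and of the receptor genes between 2.69% (Myd88) and 12.5% (Cd14). At 28 days they held 9.09% of all UMIs, and between 23.9% (Myd88) and 54.9% (Tlr2) of those of the receptor genes. Fcgr4 UMIs in Cd68-rich bins made up 6.85% (exact binomial interval 3.88 to 11.1%) at 3 days and 54.7% (46.0 to 63.1%) at 28 days. With the 28 days threshold in both sections the 3 days section had 2113 Cd68-rich bins on the injured side and 263 on the opposite side. The receptor shares at 3 days were then 5.49% to 23.3%, against 2.91% of all UMIs of the injured side.

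Between the time points the receptor genes moved in both directions on the injured side, and none by 2-fold over the whole of it. No gene of the 10 was at least 2-fold higher at 28 days, against 2.24% of 15587 genes, and none 2-fold lower, against 2.82%. Fcgr2b was 1.86-fold (1.62 to 2.15) and Tlr7 1.73-fold (1.49 to 2.01) higher at 28 days, and Fcgr3, Fcer1g and Tlr2 were 1.33 to 1.39-fold higher. Fcgr4 was at 0.642 (0.516 to 0.798) of its 3 days level, Myd88 at 0.692 (0.624 to 0.768) and Fcgr1 at 0.801 (0.710 to 0.902). For Tlr4 and Cd14 the interval of the ratio held 1. The injured side was captured over 2.08 mm at 3 days and 3.84 mm at 28 days. With both cut to 2.08 mm from the boundary, an alternative chosen after seeing the data, 1 of 10 genes passed the 2-fold ratio at 28 days, against 1.91% of all genes. This was Fcgr2b, whose log2 ratio went from 0.90 to 1.24 (1.02 to 1.47). The Tlr2 value rose from 0.41 to 0.75, that of Tlr4 was -0.32 (-0.61 to -0.04), and all 10 genes kept their direction.

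In the Cd68-rich bins 0 of 10 genes were 2-fold higher at 28 days, against 10.1% of 12256 genes, and 0 of 10 were 2-fold lower, against 8.51%. The nearest to either limit were Fcgr2b (45.5 CPM at 3 days and 86.5 CPM at 28 days), Tlr2 (142 and 270 CPM) and, in the other direction, Cd14 (55.0 and 27.6 CPM). The Cd14 log2 ratio was -0.996, just short of the limit, with an interval from -1.61 to -0.34. It turned to 0.31 with the largest Cd68-rich patch alone and to 0.72 with single bins. The count of genes 2-fold higher at 28 days rose above 0 under such rules, for which the share of all genes was not computed. Cd14 passed the limit for 2-fold lower with no UMI minimum per bin (-1.16) and with a Cd68 window of 9 by 9 bins (-1.04). These bins held 15 to 75 UMIs of each receptor gene at 3 days other than Fcer1g, which had 428, so ratios within them are imprecise.

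The balance among the 4 IgG receptor genes differed between sides and times. Shares are of the summed UMIs of the 4 genes and depend on the probes of each gene, so they are set side by side between areas and not between genes. Fcgr2b made up 12.5% (10.8 to 14.3%) on the opposite side and 13.9% (12.4 to 15.4%) on the injured side at 3 days, and 12.4% (10.1 to 15.1%) and 21.4% (19.8 to 23.1%) at 28 days. The interval of the injured side at 28 days lay above those of the other 3 areas. At 28 days the Fcgr2b share reached 23.0% (20.7 to 25.4%) in Cd68-rich bins and 11.3% (8.17 to 15.0%) over 500 µm away. Fcgr4 made up 3.38% and 10.2% of the UMIs on the opposite and injured sides at 3 days, and 2.74% and 5.40% at 28 days. Fcgr1 went from 24.9% on the opposite side to 29.1% on the injured side at 3 days and was at 20.4% and 19.3% at 28 days. Fcgr3 had the lower share on the injured side, 46.9% against 59.3% at 3 days and 53.9% against 64.4% at 28 days.

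Fcgr2b and Fcgr3 encode closely similar antibody-binding parts. Of the 45 pairs among the 10 genes, this was the only one whose transcripts shared any stretch of 25 bases, with 264 such stretches, 7.32% of those of Fcgr2b and 16.2% of those of Fcgr3. The probe positions were not used here, so how far probes of one could detect the other was not tested.

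Among the 3 Toll-like receptor genes, Tlr2 made up 59.0% of the UMIs on the opposite side and 66.5% on the injured side at 3 days, and 51.0% and 67.3% at 28 days. Tlr4 was the counterpart, with 23.1% and 18.5% at 3 days and 25.6% and 13.03% at 28 days. At 28 days Tlr4 made up 9.49% (7.95 to 11.2%) in Cd68-rich bins and 29.4% (24.5 to 34.6%) over 500 µm away. Tlr7 was at 15.0% to 23.4% on the sides of both sections.

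**Figure D4:**
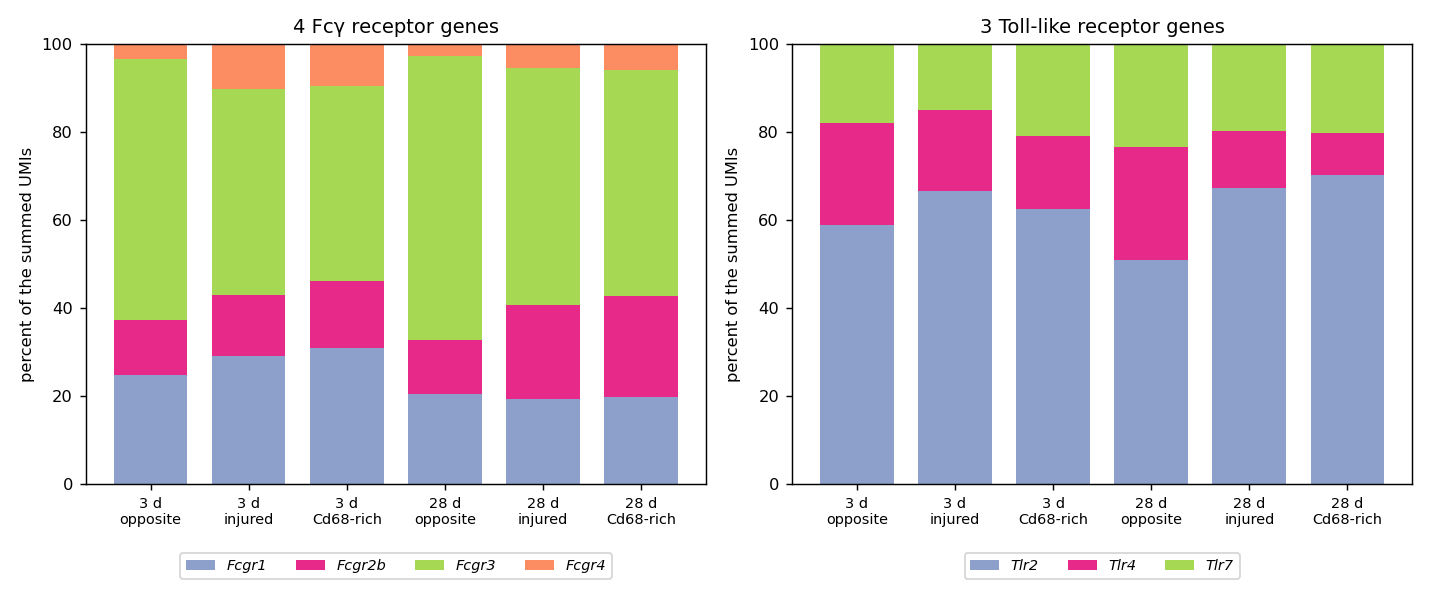
Share in percent of the summed UMIs of the 4 Fcγ receptor genes (left) and of the 3 Toll-like receptor genes (right) on the opposite side, the injured side and in Cd68-rich bins of each section. The Fcgr2b share is widest on the injured side and in Cd68-rich bins at 28 days (21.4% and 23.0%), and the Fcgr4 share on the injured side at 3 days (10.2%).

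Myeloid transcripts as a whole were also more abundant on the injured side. The summed UMIs of 10 genes expressed across microglia and macrophages (Csf1r, Aif1, Laptm5, C1qa, C1qb, C1qc, Ctss, Ptprc, Spi1 and Itgam) were higher by 1.21 on the log2 scale at 3 days and by 2.23 at 28 days. Taken per 1000 UMIs of this list, Fcgr4 was at 1.65 on the opposite side and 7.05 on the injured side at 3 days, and at 1.37 and 2.47 at 28 days. Fcgr4 therefore exceeded the myeloid sum at both times, by 2.09 (1.64 to 2.57) and 0.85 (0.17 to 1.60) on the log2 scale. Tlr2 exceeded it by 0.71 and 0.74, and Fcgr2b by 0.66 and 0.65. Cd14 was above the sum at 3 days, by 1.05 (0.71 to 1.40), and below it at 28 days, by a log2 difference of -0.46 (-0.86 to -0.04).

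Fcgr1 likewise was above the myeloid sum at 3 days, by 0.74 (0.55 to 0.93), while at 28 days its value of -0.21 had an interval that held 0. Fcgr3 was above it by 0.17 at 3 days and at -0.39 at 28 days. Tlr4 was at 0.22 at 3 days, with an interval that held 0, and at -0.63 at 28 days. Tlr7 was at 0.28 at 3 days and at 0.09 at 28 days, where the interval held 0. Myd88 was below the myeloid sum at both times, at -0.26 and -1.72. On the injured side the number per 1000 myeloid UMIs was lower at 28 days than at 3 days for all of these genes except Fcgr2b and Tlr7, whose intervals held no difference, for example 3.51 against 7.47 for Cd14 and 10.9 against 28.7 for Myd88.

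**Figure D5:**
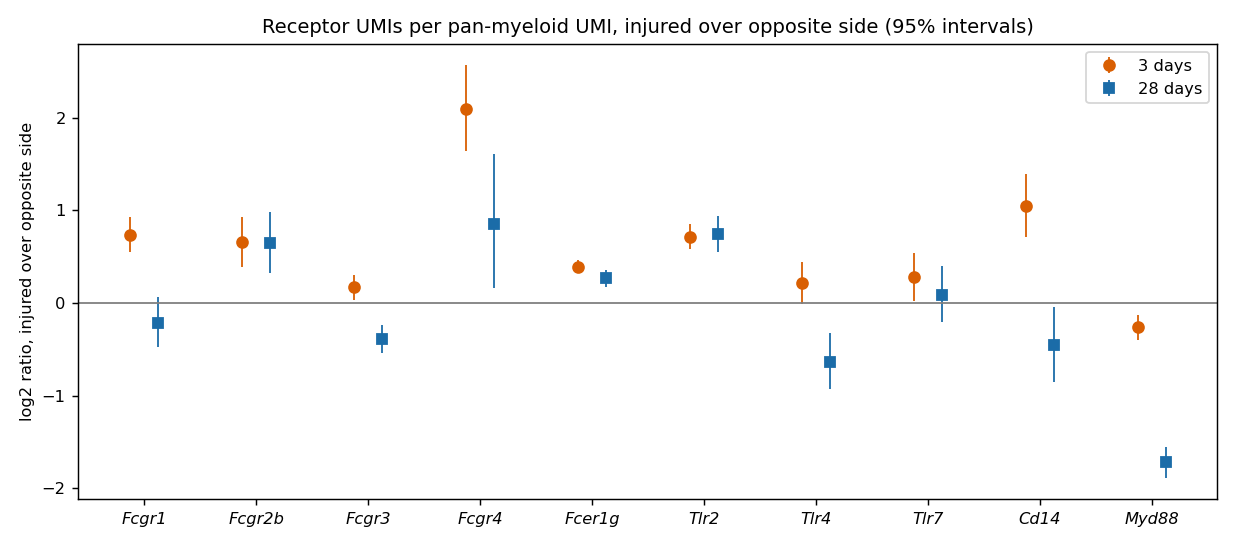
Log2 ratio, injured over opposite side, of each receptor gene per UMI of the 10-gene myeloid list, at 3 days (circles) and 28 days (squares), with 95% intervals that cover counting error only. Fcgr4, Tlr2, Fcgr2b and Fcer1g lie above 0 at both times with intervals without 0. Tlr7 also lies above 0 at both times, but its interval at 28 days holds 0. By point value Cd14, Fcgr3, Fcgr1 and Tlr4 go from above to below 0, of which only Cd14 and Fcgr3 have intervals without 0 at both times. Myd88 lies below 0 at both times.

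Sums over cell type markers differed between the sections and between the sides. In Cd68-rich bins the 6 measured monocyte and macrophage markers summed to 601 CPM at 3 days and 123 CPM at 28 days, with none at 0. Arg1 (277 and 0.889 CPM) and Msr1 (229 and 33.5 CPM) made up most of the sum at 3 days, whereas Ms4a7 was at 34.1 and 60.1 CPM and Ccr2 at 18.9 and 16.3 CPM. The 6 border macrophage markers summed to 85.3 and 17.2 CPM, mostly from Pf4 (24 UMIs) and Folr2 (13 UMIs) at 3 days, while Mrc1 was at 7.58 and 7.11 CPM and Lyve1 had 0 UMIs at 3 days. Of the microglia markers, P2ry12, a gene of resting microglia, had 9 UMIs (17.1 CPM) in these bins at 3 days and 103 UMIs (30.5 CPM) at 28 days, and Tmem119 had 32 UMIs (60.6 CPM) and 177 UMIs (52.4 CPM). The 7 neutrophil markers summed to 110 and 345 CPM, mostly from Csf3r (56.8 and 225 CPM), S100a9 (26.5 and 78.2 CPM) and S100a8 (18.9 and 35.3 CPM), while the defining genes Ly6g and Retnlg had 0 UMIs at 3 days and 1 and 5 at 28 days. The neuron list was at 3571 CPM (injured) against 5819 CPM (opposite) in the 3 days section, and 4380 against 6017 CPM in the later one. Its member Gad1 went the other way at 3 days (184 against 146 CPM) but not in the later section (117 against 176 CPM). Other lists were higher on the injured side. Choroid plexus markers summed to 271 CPM (injured) against 54.4 CPM (opposite) at 3 days, and to 173 against 100.5 CPM in the later section. For fibroblast markers the sums were 221 against 83.2 CPM and 141 against 65.6 CPM, and Gfap, an astrocyte filament gene, was at 1292 against 314 CPM and 1305 against 180.2 CPM. The whole astrocyte list differed less, with 3061 against 2117 CPM and 3539 against 2065 CPM, and its member Slc1a2, a glutamate transporter gene, was lower on the injured side (959 against 1324 CPM, then 1367 against 1405 CPM). The part of these marker differences in the receptor levels was not tested.

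Bins were also split by whether they held a UMI of a cell type marker. On the injured side at 3 days, bins with a UMI of a monocyte and macrophage marker (1261 bins) had higher levels of all 10 genes than bins without one, from 1.24 for Myd88 to 2.91 for Cd14 on the log2 scale. Bins with a microglia marker (10262 bins) had log2 ratios from 0.42 (Myd88) to 2.00 (Tlr7). At 28 days the ranges were 1.52 (Myd88) to 3.08 (Fcgr4) for monocyte and macrophage markers and 0.89 (Myd88) to 2.70 (Fcgr4) for microglia markers. Cd14 was higher with monocyte and macrophage markers than with microglia markers at 3 days (2.91 against 1.06), and at 28 days these values were 2.66 and 2.37. Beside fibroblast markers all 10 genes were higher as well, from 0.46 (Tlr2) to 1.78 (Tlr4) at 3 days and from 0.50 (Tlr2) to 2.22 (Tlr4) in the later section. Endothelial markers gave -0.13 (Fcgr3) to 0.72 (Tlr4) and then 0.58 (Tlr2) to 1.35 (Tlr4). Astrocyte markers, present in most bins, gave -0.79 (Cd14) to 0.45 (Fcgr2b) at 3 days, but 0.31 (Myd88) to 2.50 (Fcgr2b) at 28 days, which overlaps the range for microglia markers. All 10 genes were lower in bins with a neuron marker, by log2 ratios of -1.09 to -1.90 at 3 days, and -1.39 to -2.48 in the later section. A bin can hold several cells, and bins with a marker differ in depth from those without.

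The other genes of both pathways were taken from lists and counted in the same way, to be read against the 10.5% of all genes at 3 days and 6.55% at 28 days that were at least 2-fold higher on the injured side. Of 10 genes listed as other Toll-like receptors, which include the related gene Cd180, 6 were at least 2-fold higher on the injured side at 3 days and 7 at 28 days. At 3 days Cd180 (1.87 on the log2 scale), Tlr13 (1.52) and Tlr1 (1.49) had the highest ratios and Tlr12 (-0.04) and Tlr5 (0.33) the lowest. At 28 days they were Tlr8 (2.96, on 32 and 5 UMIs), Tlr1 (2.14) and Cd180 (2.09) at the top and Tlr5 (0.36) and Tlr3 (0.60) at the bottom. Of the co-receptors and adaptors, 7 of 21 were 2-fold higher at each time. The interferon regulatory factor gene Irf7 (2.44), the lipopolysaccharide-binding protein gene Lbp (1.88) and Cd36 (1.51) led at 3 days, with the kinase genes Irak2 (-0.01) and Map3k7 (0.07) lowest, and Ly86 (2.00), Irf7 (1.79) and Unc93b1 (1.77) led at 28 days, with Tab1 (-0.07) and Traf3 (-0.02) lowest. UNC93B1 carries Toll-like receptors to endosomes.

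Inhibitors of Toll-like signalling were 2-fold higher in 1 of 8 cases at 3 days, near the share of all genes, and 3 of 8 at 28 days. Socs3, a feedback inhibitor of cytokine signalling, was highest both times (1.91 and 1.63), followed by Socs1 (0.98) and Irak3 (0.78) at 3 days and by Tnfaip3 (1.19) and Irak3 (1.02) at 28 days. The lowest were Cyld (-0.21) and Tollip (0.09) at 3 days, and Cyld (-0.11) and Tollip (-0.09) at 28 days. On the injured side Socs3 was at 10.4 CPM at 3 days and 2.75 CPM at 28 days. Of listed inflammatory genes that Toll-like receptor signalling can induce, 8 of 11 measured genes were 2-fold higher at 3 days and 7 of 11 at 28 days. These genes are not specific to MyD88. The chemokine genes Cxcl10 (3.73) and Cxcl2 (3.02, on 22 and 6 UMIs) and the cytokine gene Il1b (2.94) led at 3 days, with Ptgs2 (0.17) and Nfkbiz (0.36) lowest. Ccl5 (3.09), Il1b (2.51) and Cxcl10 (2.45) led at 28 days, with Ptgs2 (-0.48) and Nos2 (0.16) lowest. On the injured side Cxcl10, Tnf, Nos2 and Ptgs2, 4 of 11 genes of this list, were at least 2-fold lower at 28 days than at 3 days. This is beside 2.82% of all genes, and Cxcl10 for example was at 6.06 against 19.9 CPM.

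Of the 14 genes listed for signalling by Fc receptors and related receptors, 12 were at least 2-fold higher on the injured side at each time. The tyrosine kinase genes Fgr (3.03) and Btk (1.59) were among the highest at 3 days, and Pik3cd (-0.09) and Fyn (-0.05) were lowest. At 28 days Fgr (4.78), the adaptor gene Tyrobp (2.76) and Btk (2.24) led, with Pik3cd (0.02) and Fyn (0.11) lowest. Inhibitors of Fc receptor signalling were 2-fold higher in 2 of 7 cases at 3 days and 3 of 7 at 28 days. The phosphatase genes Ptpn6 (1.33 and 2.39) and Inpp5d (1.06 and 1.63) and the adaptor gene Dok1 (0.85 and 1.52) led at both times. Cbl (0.03) and Dok3 (0.13) were lowest at 3 days, and Ptpn11 (-0.06) and Cbl (0.04) at 28 days.

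Of 11 other Fc receptor genes, 7 had enough UMIs at 3 days and 5 at 28 days, and 2 were 2-fold higher each time. Fcrls, a microglial gene, was the best measured of them, with 101 CPM (injured) and 38.3 CPM (opposite) at 3 days, and 139 and 25.6 CPM at 28 days. Trim21 (1.08) and Ms4a2 (0.56, on 8 and 12 UMIs) came next at 3 days and Fcrl1 (2.33) and Trim21 (0.82) at 28 days, while Fcmr (-0.27) and Fcrl1 (0.19) were lowest at 3 days and Ms4a2 (-0.72) and Fcgrt (0.45) at 28 days. Of 11 immunoglobulin and joining chain genes, 4 had enough UMIs at 3 days and 6 at 28 days, and none was 2-fold higher on the injured side. At 3 days no IgG heavy-chain gene was among the 4, so the genes of the IgG ligand were not measured there. The only one named at 28 days is Ighg2b. The log2 ratios ran from Igkc (-0.69) and Jchain (-0.51) to Ighm (-0.15) and Iglc2 (0.31) at 3 days. At 28 days Ighe (0.98, on 13 and 8 UMIs), Igkc (0.65) and Iglc2 (0.42) were highest, and Ighg2b (-1.04, on 6 and 15 UMIs) and Ighm (-0.91) lowest.

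Likeness of pattern was taken as Pearson's r of log2(CPM + 10) over tiles of 256 µm, 488 tiles at 3 days and 426 at 28 days, as a description, since neighbouring tiles share tissue and depth. Counting error also lowers r for scarce genes, so its size is not to be compared between genes. At 3 days, for example, Fcgr4 had 267 UMIs over the tiles and Fcer1g 6796. Fcer1g followed the complement gene C1qa most closely (0.89 at 3 days and 0.91 at 28 days), with C1qb and Tyrobp next at 3 days and C1qb and Ctss at 28 days. Fcgr3 was most like Ctss (0.76), C1qb and Tyrobp at 3 days and C1qa (0.84), C1qb and Ctss at 28 days. Fcgr1 was most like Timp1 (0.73), Ccl12 and Grn at 3 days and Gpnmb (0.77) and C1qb at 28 days. Fcgr2b was most like C3ar1 (0.69), Fcer1g and Vim, and at 28 days Cst7 (0.81), Trem2 and C1qa. Fcgr4 was most like the interferon-inducible genes Ifi204 (0.75) and Ifi207 and the scavenger receptor gene Msr1 at 3 days, and had fewer than 200 UMIs at 28 days.

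The Toll-like receptor genes had partly different partners. Tlr2 was most like Cd52 (0.80), Msn and Vim at 3 days and Ctsd (0.85), Apoe and Tyrobp at 28 days. Tlr7 was most like C1qa (0.65), Fcrls and Fcer1g at 3 days and Cst7 (0.82), Ctsb and Gpnmb at 28 days. Tlr4 was most like S100a11 (0.70), Tnfrsf1a and Vim at 3 days and Lyz2 (0.59), Ctsh and Vim at 28 days. Cd14 was most like Lilrb4a at both times (0.68 and 0.65), with Ifi207 and Rgs1 next at 3 days and Gpnmb and Cyba at 28 days. Myd88 had its nearest partners in Vim (0.68), Msn and Tnfrsf1a at 3 days, and at 28 days its highest value was 0.46, with B2m, followed by Ctsd and Lgals3.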

How the data were processed

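Per the file headers and the labels, the authors ran Space Ranger 4.0.1 (mouse probe set, build mm10) and deposited its unnormalized UMI count for every gene in each bin of 16 µm. The 3 days section held 120615873 UMIs (median 836 per bin) and the 28 days section 82422389 (median 596). Bins under 100 UMIs were dropped, 1.93% and 2.15% of each section, so that 119617 and 103316 bins were used. The sections share 84781 grid positions, which are places on the array and not cells.

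UMIs were summed per area and scaled to CPM. With 1 section per group there was no test and no p-value: a gene was counted when it had at least 20 UMIs over both areas and a ratio of at least 2. The injured side was array column below 130 at 3 days and below 240 at 28 days. Cd68-rich windows had at least 2 Cd68 UMIs, and the thresholds were 310 CPM and 206 CPM. All 10 receptor genes are named, with the 3 highest and 2 lowest genes of each pathway list and the 3 genes most like each receptor gene (at least 200 UMIs, tiles of at least 64 bins). Some genes that this rule names are not reported here. The genes and lists were chosen with earlier results of these data known. Promoters are those of RefSeq, GRCm38.p6, and transcripts those of GENCODE.

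Alternatives were other bin and gene minima, UMIs per bin, TMM scaling from edgeR 4.0.16 (R 4.3.3), moved boundaries and other Cd68 rules. Methods were tested on simulated data. Python 3.11.15, numpy, pandas, scipy and matplotlib were used.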

Additional observations from a re-analysis of the deposited data

How the results depend on the processing

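Each ratio was recomputed with no or a higher UMI minimum per bin, UMIs per bin, TMM scaling, moved boundaries, equal widths and other Cd68 rules. Of 660 recomputed ratios 518 stayed within their main interval, none that was at least 2-fold changed direction, and 18 changed sign, all of them in Cd68-rich bins between the time points. The count at least 2-fold higher on the injured side was 9 or 10 at 3 days and 9 at 28 days. In Cd68-rich bins it was 8 to 10 at 3 days and 10 at 28 days, and between the time points on the injured side 0, but 1 with the injured side cut to the same width at both times.

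In Cd68-rich bins, 0 genes were 2-fold higher at 28 days in the main setting. The count was above 0 with a minimum of 200 UMIs per bin, UMIs per bin or TMM scaling. It was also above 0 with a Cd68 threshold at the top 0.1%, the largest patch alone or single bins. The share of all genes was not computed for these settings, so the rise cannot be set against it. The cause was not tested. The Cd14 log2 ratio of -0.996 there turned to 0.31 with the largest patch and 0.72 with single bins, and passed the 2-fold lower limit with no UMI minimum per bin (-1.16) or a window of 9 by 9 bins (-1.04). With UMIs per bin the median log2 ratio of all genes went as low as -1.02 (Cd68-rich bins, 3 days), beside -0.07 in the main setting. No paired analysis was possible because each group had 1 section. With 1 mouse per time point, time cannot be told apart from animal, section and captured region.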
